A study of Mus musculus with 8 samples.

Results

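The narrow full-length-only regions are short stretches of the mouse genome whose RNA was listed as bound by full-length ALKBH5 in both replicates and by the truncated protein in neither. The peaks of 4 eCLIP libraries were merged wherever they shared at least 1 bp. A merged region was kept when both full-length lists had a peak there, no del-cIDR list had one, and its width was 400 bp or less. This gave 2370 of 43029 merged regions. The regions were chosen by 2 measured values, the presence of a peak in each list and the merged width, so these are described and not tested.

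The study profiled RNA bound by ALKBH5 in E14TG2a cells, a mouse embryonic stem cell line, by eCLIP, in which UV light crosslinks RNA to the proteins in contact with it and one protein is then immunoprecipitated. Cells of the WT genotype carry full-length ALKBH5. Cells of the Alkbh5 del-cIDR genotype carry an endogenous ALKBH5 without its C-terminal intrinsically disordered region. All groups grew with LIF (1000 U/ml) and the inhibitors PD0325901 (1 µM) and CHIR99021 (3 µM), were irradiated once at 400 mJ/cm² of 254 nm light, and gave RNA from isolated nuclei. There are 8 samples, 2 immunoprecipitates and 2 inputs per genotype, of which the 4 immunoprecipitates gave the peak lists used here. Nothing in the labels tells if replicates were grown as separate cultures or if the del-cIDR line is 1 clone. The p-values below therefore measure only the spread between these samples, which may be technical.

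ALKBH5 is a dioxygenase that removes the methyl group of N6-methyladenosine, the most common internal mark of messenger RNA. The mark is placed by a nuclear methyltransferase complex built around METTL3 and METTL14 and is read by proteins such as those with a YTH domain. ALKBH5 resides mostly in the nucleus, where it meets RNA that is still being made and spliced. Intrinsically disordered regions have no fixed fold and often set where a protein gathers and what it touches. The series title asks whether such regions restrain the targeting of demethylases.

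The 4 lists were of like length, with 19892 and 16636 peaks for full-length replicates 1 and 2 and 17584 and 18841 for del-cIDR replicates 1 and 2. Peaks of 400 bp or less made up 54.6% and 71.8% of the full-length and 70.7% and 68.0% of the del-cIDR lists. The shortest peak was 297 and 243 bp in the full-length lists and 300 and 301 bp in the del-cIDR lists. Read numbers behind the lists are unknown, so a region without a peak is one at which none was listed and not one shown to be unbound. Positions are in GRCm39, and no peak carries a strand. Genes, transcript features, sequence and stem cell markers at these positions were not analysed here, since the gene table at hand is on an older build.

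Most narrow sites of full-length ALKBH5 had no del-cIDR peak, and the share with one was larger than among broader sites, as it was for del-cIDR sites in turn. Of 3762 narrow regions found with both full-length replicates, 2370 (63.0%) lacked any del-cIDR peak, 194 (5.16%) had one in a single del-cIDR list, and 1198 (31.8%) had one in both. Of 6745 broader ones, 5179 (76.8%) lacked a del-cIDR peak and 824 (12.2%) had one in both del-cIDR lists. Of the regions in both del-cIDR lists, 62.8% of the narrow and 76.3% of the broader ones lacked a full-length peak, so the split by width was alike in both genotypes. The narrow full-length-only regions were thus 31.4% of the 7549 full-length-only regions, and with 0.803 Mb they held 12.0% of the 6.69 Mb that those cover. These shares follow from the rule that set the classes and carry no test. The number of members rested on the demand for 2 full-length lists. With full-length replicate 1 or 2 left out, 8634 or 8350 regions met the rule. When peaks under 4-fold enrichment were dropped, 1181 did.

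The narrow regions were each made of exactly 1 peak per full-length list. Their merged width ran from 297 to 400 bp with a median of 335.5 bp. The single peaks had a median width of 325 bp in replicate 1 and 261 bp in replicate 2, and 10.3% and 14.9% of them were of the shortest width of their list. The limit of 400 bp cut through a continuous range of widths. There were 15 full-length-only regions of 400 bp and 19 of 401 bp. Just inside the limit lay chr4:147759612-147760011, with 8.57-fold and 7.59-fold enrichment in replicates 1 and 2. Also of this width were chr2:76633347-76633746, with 16.0-fold and 14.0-fold, and chr10:76253932-76254331, with 6.69-fold and 4.77-fold. Just outside it, at 401 bp, lay chr1:34208273-34208673 with 9.51-fold and 8.06-fold, chr1:34307350-34307750 with 8.06-fold and 4.32-fold, and chr1:189393914-189394314 with 11.4-fold and 8.62-fold. With 3 regions on each side, these values are given as examples.

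Enrichment at the narrow regions was moderate and followed the same order in both full-length replicates. Fold enrichment here is the authors' own value for each peak over the background of the peak caller, and it is compared only within a list. The median was 4.59-fold in replicate 1 and 4.24-fold in replicate 2, beside 3.80-fold and 3.60-fold over all peaks of those lists. The extremes were 1.34-fold and 41.5-fold in replicate 1 and 1.39-fold and 27.2-fold in replicate 2. Both replicates gave at least 4-fold enrichment at 1121 regions (47.3%) and at least 10-fold at 64 (2.70%), and both fell under 2-fold at 23 (0.970%). Across the 2370 regions the Spearman correlation of fold enrichment between replicates was 0.761, a description over regions that share their libraries.

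**Figure D1:**
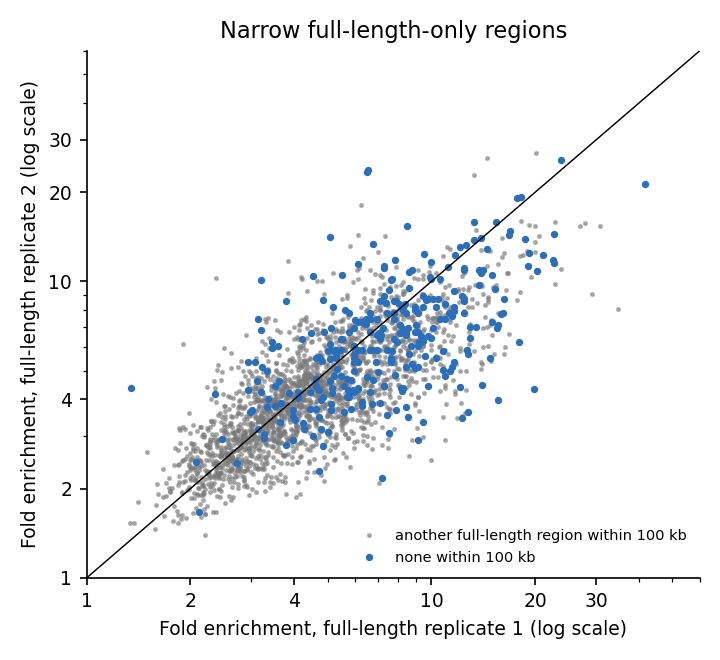
Fold enrichment of each narrow full-length-only region in full-length replicate 1 (horizontal, log scale) and replicate 2 (vertical, log scale), 1 point per region, with the line of equal values. Regions without another full-length region within 100 kb (blue, 295 regions) lie mostly in the upper part of the cloud, with medians of 7.28-fold and 6.08-fold.

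Few of the strongest full-length peaks were narrow and full-length-only, and the share of such peaks was higher in every later range of ranks. Peaks were ranked within each list by the deposited −log10 q. The narrow full-length-only regions supplied 28 and 35 of the 500 highest ranked peaks of replicates 1 and 2, or 5.6% and 7%. From rank 501 to 2000 they supplied 21.1% and 17.9%, and from rank 2001 to 5000 they supplied 22.5% and 21.4%. From rank 5001 to 10000 the share was 13.8% and 15.8%. Beyond rank 10000 they supplied 6.71% and 9.57%. In both lists the share was thus highest from rank 2001 to 5000 among these bins. Over the whole lists, narrow full-length-only regions supplied 2370 of 19892 peaks in replicate 1 and 2370 of 16636 in replicate 2. The width limit and the demand for a peak in both lists may shape these shares, which was not tested. The lists are of different length, so ranks are not set against each other.

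The summits of both replicates lay close but seldom on the same base. The median distance between the replicate 1 and replicate 2 summit of a narrow region was 39.0 bp (quartiles 17.0 and 65.0 bp), and the largest was 283 bp. Both summits were within 20 bp of each other at 670 regions (28.3%), coincided at 20 and were over 100 bp apart at 302 (12.7%). The same distance had a median of 59.0 bp in the broader full-length-only regions and 43.0 bp between the full-length summits of narrow regions found in all 4 libraries. A narrow region leaves less room for summits to part, so these values describe the classes. Between the del-cIDR summits of narrow del-cIDR-only regions the median was 34.0 bp, and 42.3% lay within 20 bp. At narrow regions found in all 4 libraries, 18.9% of full-length and 40.0% of del-cIDR summit pairs lay within 20 bp. The higher del-cIDR share was thus also found at shared regions and is not particular to the genotype-only classes. The lists themselves differed, since the shortest peak was 297 and 243 bp in the full-length but 300 and 301 bp in the del-cIDR replicates. Whether this bears on the summit distances was not tested.

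The 10 narrow regions with the best mean rank show the class at its strongest. The first, chr10:62668391-62668752, had 16.0-fold and 12.0-fold enrichment and ranked 100 and 118 in replicates 1 and 2. It lay 288 bp from another full-length region and 14.6 kb from the nearest del-cIDR region. Next came chr10:128277752-128278104, with 7.47-fold and 5.02-fold enrichment, 902 bp from a full-length and 2487 bp from a del-cIDR region. The third, chr9:104285606-104285902, was of the shortest width of the replicate 1 list, 297 bp, and had 5.09-fold and 6.15-fold enrichment. It was the most isolated of the 10, since its nearest full-length region lay 108 kb and its nearest del-cIDR region 80.4 kb away. The region chrX:156243907-156244253 had 9.93-fold and 11.3-fold enrichment and was 524 bp from another full-length region.

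The other members of the 10 lay close to further full-length binding. At chr1:72888318-72888692 the replicates gave 4.65-fold and 5.53-fold, and a region holding peaks of both genotypes was 86 bp away. The highest replicate 1 enrichment of the 10 was at chr4:146062781-146063174, with 27.8-fold and 15.7-fold, 80 bp from another full-length region and 65.8 kb from a del-cIDR region. The highest replicate 2 enrichment was at chr8:70044417-70044766, with 13.3-fold and 22.8-fold. The last 3 were neighbours on chromosome 1, at chr1:34247640-34248037 (19.0-fold and 12.6-fold), chr1:34223100-34223498 (13.5-fold and 8.48-fold) and chr1:34213209-34213579 (7.81-fold and 11.9-fold). The order of the replicates by enrichment thus changed from region to region. No del-cIDR peak was listed at any of the 10, by the rule.

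Most narrow full-length-only regions had further full-length binding within 10 kb, about as often as full-length regions in general. Another region with a full-length peak was found at a median of 1183 bp, edge to edge. Such a neighbour was within 1 kb of 1101 regions (46.5%, exact 95% binomial interval 44.4 to 48.5%, counting of regions only) and within 10 kb of 1760 (74.3%). None was within 100 kb of 295 (12.4%). Over all regions with a full-length peak the median was 1529 bp, with 44.0% within 1 kb, 69.6% within 10 kb and 10.6% with none within 100 kb. Measured to 1 list at a time, the median distance was 1402 bp to replicate 1 and 2060 bp to replicate 2. When only regions in both full-length lists counted as neighbours, the median was 2828 bp, a setting chosen after the data were seen. It was 1958 bp with full-length replicate 2 left out, and 2463.5 bp when peaks under 4-fold were dropped. Broader full-length-only regions were nearer still to other full-length regions, at a median of 432 bp.

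Del-cIDR binding was farther away than full-length binding. The nearest region with a del-cIDR peak lay at a median of 18.3 kb, and by list at 28.3 and 25.8 kb for del-cIDR replicates 1 and 2. A del-cIDR region was within 1 kb of 224 regions (9.45%) and within 10 kb of 924 (39.0%, exact 95% binomial interval 37.0 to 41.0%). None was within 100 kb of 478 (20.2%). Over all regions with a full-length peak, the median distance to another del-cIDR region was near this, at 18.9 kb. The shares were 10.9% within 1 kb, 38.2% within 10 kb and 18.1% with none within 100 kb. These values leave out a del-cIDR peak inside the region itself. Of all regions with a full-length peak, 5171 (21.9%) held one, and by the rule no narrow full-length-only region did. The likeness thus covers distances to other regions only. For broader full-length-only regions the median was 18.1 kb and the share within 10 kb 37.2%, so both width classes stood at about the same distance from del-cIDR binding. When peaks under 4-fold were dropped the median was 110222 bp. It was 54.4 kb when a neighbour needed a peak in both del-cIDR lists. Merged regions with a peak of a given genotype were of like number, 23564 for full-length and 24636 for del-cIDR.

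Of the 2370 regions, 1728 (72.9%) were closer to another full-length region than to a del-cIDR region and 386 (16.3%) were closer to a del-cIDR region. For 252 (10.6%) the nearest neighbour held peaks of both genotypes. Within 10 kb, 906 regions (38.2%) had full-length company alone, 854 (36.0%) had both, 70 (2.95%) had del-cIDR alone and 540 (22.8%) had neither. A full-length neighbour without a del-cIDR one was thus 12.9 times as frequent as the reverse. Over all regions with a full-length peak, of which 21.9% held a del-cIDR peak themselves, 69.6% had another full-length region within 10 kb. Another del-cIDR region was within 10 kb of 38.2%, not counting a peak inside the region. Joint counts over those regions are not given here, so the ratio is not shown to be particular to the class.

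**Figure D2:**
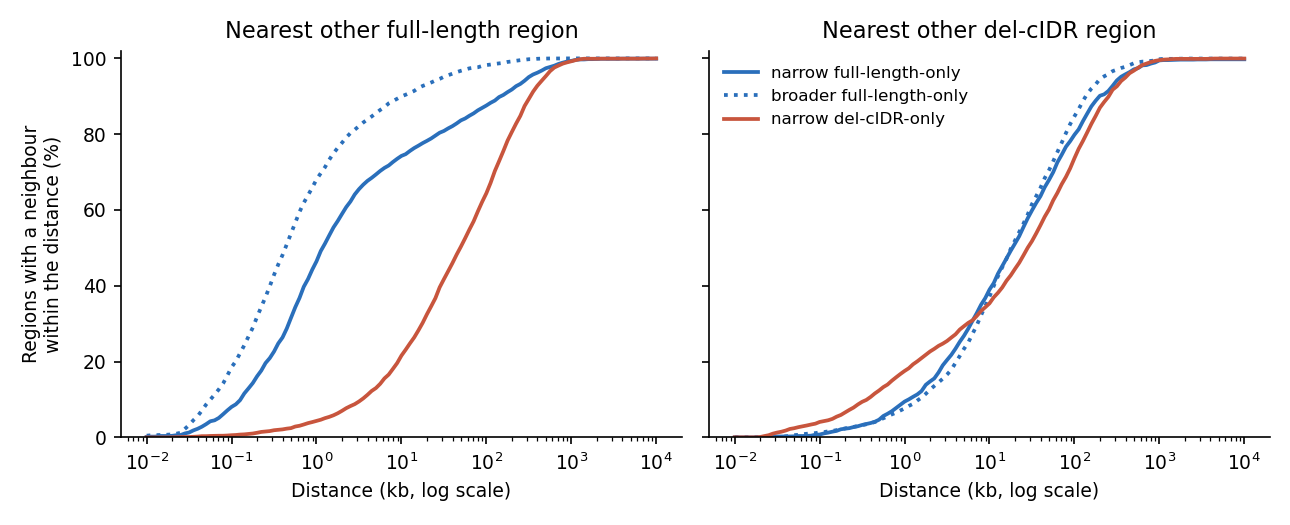
Percent of regions (vertical) with another full-length region (left panel) or another del-cIDR region (right panel) within the distance on the horizontal axis (kb, log scale), for narrow full-length-only (solid blue), broader full-length-only (dotted blue) and narrow del-cIDR-only regions (red). At 10 kb from a full-length region the curves stand at 74.3%, 90.0% and 21.6%, while those for del-cIDR regions stand at 39.0%, 37.2% and 35.4%.

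The nearest full-length neighbour was of every kind, and the kinds are given beside their share of all regions with a full-length peak. Among the 1101 regions with a full-length neighbour within 1 kb, that neighbour was a broader full-length-only region in 351 cases (31.9%, against 22.0% of all such regions) and another narrow full-length-only region in 250 (22.7%, against 10.1%). It was a region of replicate 1 alone in 284 cases (25.8%, against 34.1%) and of replicate 2 alone in 108 (9.81%, against 11.9%). In 108 cases (9.81%) it was a region that also held a del-cIDR peak, against 21.9%. These differences were not tested. Regions of 2 kb or wider were not the usual company, since 58 narrow regions (2.45%) had one within 1 kb and 298 (12.6%) within 10 kb.

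Whether short genotype-specific sites keep such company in both genotypes was compared over libraries. In each full-length library the peaks of narrow full-length-only regions were asked for another peak of the same list within 10 kb, and in each del-cIDR library the peaks of narrow del-cIDR-only regions likewise. The share was 71.8% and 66.9% in the full-length replicates and 31.0% and 31.8% in the del-cIDR replicates. The means were 69.3% ± 3.49 and 31.4% ± 0.593 (SD over 2 libraries of each genotype). They differed by 37.95 percentage points and did not overlap. The two-sided exact permutation p was 0.333, the smallest that 2 libraries against 2 can give. The genotypes were read at different region sets, each chosen by peaks in the same lists, so library labels cannot be freely exchanged. This p therefore cannot decide whether the genotypes differ. Both libraries of a genotype were read at the same regions, so their spread covers peak positions and lists, not the choice of regions. With del-cIDR replicate 1 or 2 left out, which lets 9468 or 9224 regions into the narrow del-cIDR-only set, the difference was 19.1 or 21.8 points.

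Set against the whole lists, the narrow full-length-only regions were ordinary and the narrow del-cIDR-only regions were sparse. Over all peaks of a list, 69.1% and 63.6% of full-length and 52.5% and 55.6% of del-cIDR peaks had a peak of the same list within 10 kb. The peaks in narrow full-length-only regions lay 2.73 and 3.23 percentage points above their lists. Those in narrow del-cIDR-only regions lay 21.5 and 23.8 points below theirs. These differences from the list were described and not tested. Counted by region, 14.6% of narrow regions found in all 4 libraries had another full-length region within 10 kb. Another del-cIDR region was within 10 kb of 19.1% of them. Own-genotype regions were that near to 74.3% of narrow full-length-only and 35.4% of narrow del-cIDR-only regions. Sparse surroundings were thus not particular to the narrow del-cIDR-only regions.

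Peaks of the other genotype were also nearer to the narrow full-length-only regions. A peak of either del-cIDR list was within 10 kb of 38.6% and 38.4% of them in the full-length replicates. A peak of either full-length list was within 10 kb of 21.5% of the narrow del-cIDR-only regions in both del-cIDR replicates. The means were 38.5% and 21.5%, and they differed by 17.0 percentage points. Both libraries of a genotype were read at the same regions against the same pooled lists, so their values are nearly equal by construction and give no replicate error. This difference is a description, with no test. The rule had removed overlap with the other genotype from both sets, and distances beyond that were not used by it. The difference was 3.67 points when peaks under 4-fold were dropped. It was 2.13 and 1.60 points with del-cIDR replicates 1 and 2 left out in turn.

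**Figure D3:**
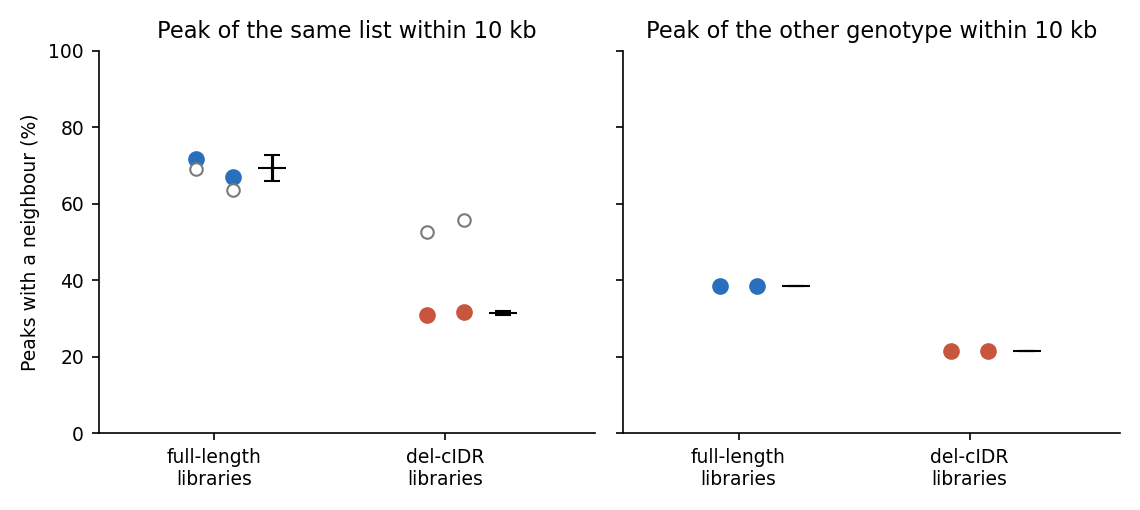
Percent of peaks with a peak of the same list (left) or of the other genotype (right) within 10 kb, 1 filled point per library, for narrow full-length-only regions in the full-length libraries (blue) and narrow del-cIDR-only regions in the del-cIDR libraries (red). Black bars give mean and SD of 2 libraries, which on the right are nearly equal by construction, and open circles all peaks of the same list. In the left panel the filled full-length points stand at 71.8% and 66.9%, just above their open circles, and the filled del-cIDR points at 31.0% and 31.8%, well below theirs.

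The narrow regions differed among themselves by their surroundings. The 295 regions without another full-length region within 100 kb had a median enrichment of 7.28-fold and 6.08-fold in replicates 1 and 2, against 4.15-fold and 3.94-fold for the 1101 with a neighbour within 1 kb. Both replicates gave at least 4-fold at 76.9% of the former and 41.5% of the latter. The isolated regions were narrower, with a median merged width of 304 against 347 bp. In replicate 1 the peak was of the list's shortest width at 31.2% of isolated and 3.81% of crowded regions, and in replicate 2 at 39.7% and 7.08%. By −log10 q the order of these 2 bins was the other way, with medians of 20.5 and 13.2 for isolated and 25.3 and 17.1 for crowded regions in replicates 1 and 2. The bins had no steady order by −log10 q, since the lowest median in either replicate (14.3 in replicate 1) was that of the 315 regions with a neighbour at 10 to 100 kb.

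Isolation from full-length and from del-cIDR binding went together. A del-cIDR region was within 10 kb of 48.8% of the regions with a full-length neighbour within 1 kb and of 48.1% of those with one at 1 to 10 kb. The share was 17.1% for the 315 regions whose full-length neighbour was at 10 to 100 kb, and 5.42% for the 295 beyond. The distance between replicate summits did not follow this order, with medians of 39, 40, 42 and 36 bp in the 4 bins. For the del-cIDR shares, a neighbouring region with peaks of both genotypes counted as both kinds of neighbour. Those shares over all regions with a full-length peak are not given here, so the pattern is not shown to be particular to the class.

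The 5 regions farthest from any other region were all on the Y chromosome. The farthest, chrY:29398980-29399276, was 11.1 Mb from any listed region and had 3.20-fold and 4.25-fold enrichment at the shortest width of both lists. The next, chrY:44107139-44107447, had 22.5-fold and 11.8-fold enrichment and lay 3568 kb from any region. Then came chrY:83476701-83476997 with 3.15-fold and 3.19-fold, chrY:89286716-89287019 with 5.49-fold and 10.5-fold, and chrY:9820671-9820992 with 9.12-fold and 6.76-fold. The Y chromosome held 69 merged regions in all.

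At the other end, some narrow regions almost touched del-cIDR binding. The closest, chr17:35378619-35378958, had 2.16-fold and 2.10-fold enrichment in full-length replicates 1 and 2 and lay 24 bp from chr17:35378983-35379900. That neighbour was a del-cIDR-only region with 2.35-fold and 2.30-fold enrichment in del-cIDR replicates 1 and 2. The region chr7:117782699-117783054 (7.44-fold and 3.76-fold) lay 26 bp from a del-cIDR replicate 1 peak of 2.59-fold. Neighbours of the other kind were shared ones, since chr4:15820029-15820328 (5.11-fold and 4.09-fold) and chr11:119340570-119340905 (7.51-fold and 5.40-fold) lay 26 and 27 bp from regions that held both full-length lists and 1 del-cIDR list. The fifth, chr2:27364349-27364709, had 1.99-fold and 2.50-fold enrichment and was 30 bp from a del-cIDR replicate 1 peak. In all, 75 regions (3.16%) had a del-cIDR region within 300 bp.

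Chained at gaps of 10 kb or less, the 2370 regions formed 1425 singletons and 305 groups of 2 or more, which held 945 regions (39.9%). There were 50 groups of 5 or more, with 338 regions. The largest, chr1:71645640-71690759, packed 19 narrow regions of 301 to 367 bp into 45.1 kb, at a median gap of 1276 bp. It held 26 peaks in each full-length list and 4 and 3 in del-cIDR replicates 1 and 2. Enrichment of the full-length peaks ran from 2.22-fold to 6.95-fold in replicate 1 and from 1.99-fold to 9.25-fold in replicate 2. That of the del-cIDR peaks ran from 1.95-fold to 2.92-fold and from 2.20-fold to 2.87-fold. Past the last del-cIDR peak, 12 narrow full-length-only regions followed within 22.2 kb with no del-cIDR peak among them. Of the 26 regions with a full-length peak in this group, 1 was a broader full-length-only region.

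**Figure D4:**
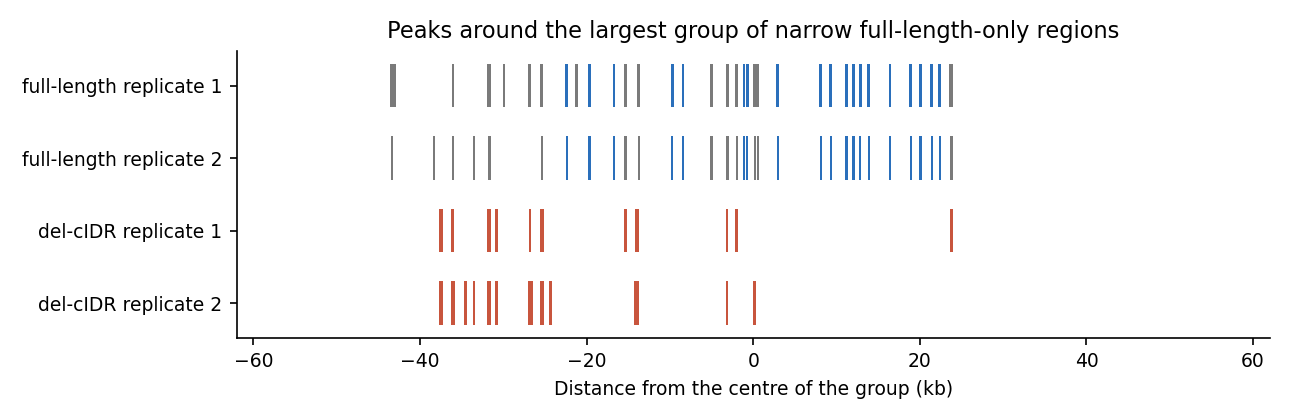
Peaks of the 4 libraries around the largest group of narrow full-length-only regions, drawn to scale against the distance from the centre of the group (kb). Blue bars are full-length peaks in narrow full-length-only regions, grey bars other full-length peaks and red bars del-cIDR peaks; the right end holds 12 narrow full-length-only regions in 22.2 kb and no del-cIDR peak before the group ends.

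The other large groups were of 2 kinds. The group chr2:121244572-121267154 held 12 narrow regions in 22.6 kb and nothing else, with 12 peaks in each full-length list and none in a del-cIDR list. Its enrichment ran from 2.38-fold to 9.46-fold in replicate 1 and from 2.05-fold to 10.3-fold in replicate 2, and its nearest del-cIDR region was 993 bp from a member. In the remaining groups narrow and broader regions mixed. The group chr1:34305947-34345999 held 12 narrow and 10 broader full-length-only regions, with 24 and 24 full-length and 2 and 4 del-cIDR peaks. A second group nearby, chr1:34193611-34234010, held 11 narrow and 9 broader ones, with 25 and 30 full-length and 3 and 6 del-cIDR peaks. On chromosome 4, chr4:123248581-123293259 held 11 narrow and 14 broader ones, with 29 and 28 full-length and 0 and 2 del-cIDR peaks.

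When all full-length regions, and not only the narrow ones, were chained in this way, 25.7% of the narrow full-length-only regions stood alone and 31.4% belonged to a tract of 10 or more regions. Of the narrow del-cIDR-only regions, chained with all del-cIDR regions, 64.6% stood alone and 4.86% belonged to such a tract. Single regions made up 64.2% of all full-length and 70.9% of all del-cIDR tracts. Another full-length region within 10 kb was found for 74.3% of narrow full-length-only regions and 69.6% of all regions with a full-length peak. Shares of all regions in tracts of 10 or more are not given here. The median narrow full-length-only region was 1 of 5 in its tract. A tract that included a region shared with del-cIDR held 827 (34.9%) of the narrow full-length-only regions.

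Narrow full-length-only regions were found on all numbered chromosomes, X and Y, and on none of the mitochondrial regions. Chromosome 4 had most, 224 (9.45%), followed by chromosomes 1 and 2 with 184 each and chromosome 13 with 156. As a share of all merged regions, which was 5.51% genome-wide, they reached 8.17% on chromosome 13, 7.63% on X, 7.51% on chromosome 4 and 7.23% on chromosome 1. The share was lowest on chromosome 11 (3.25%) and chromosome 17 (3.70%). On the Y chromosome 12 of 69 regions (17.4%) belonged to the class. Only chromosomes 4, 13 and Y held more narrow full-length-only than narrow del-cIDR-only regions, 224 against 217, 156 against 154 and 12 against 7. The sets differ in size, with 2370 against 3577 regions in all, so the counts of a chromosome partly reflect these totals. Another 5 narrow full-length-only regions lay on 4 unplaced scaffolds.

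**Figure D5:**
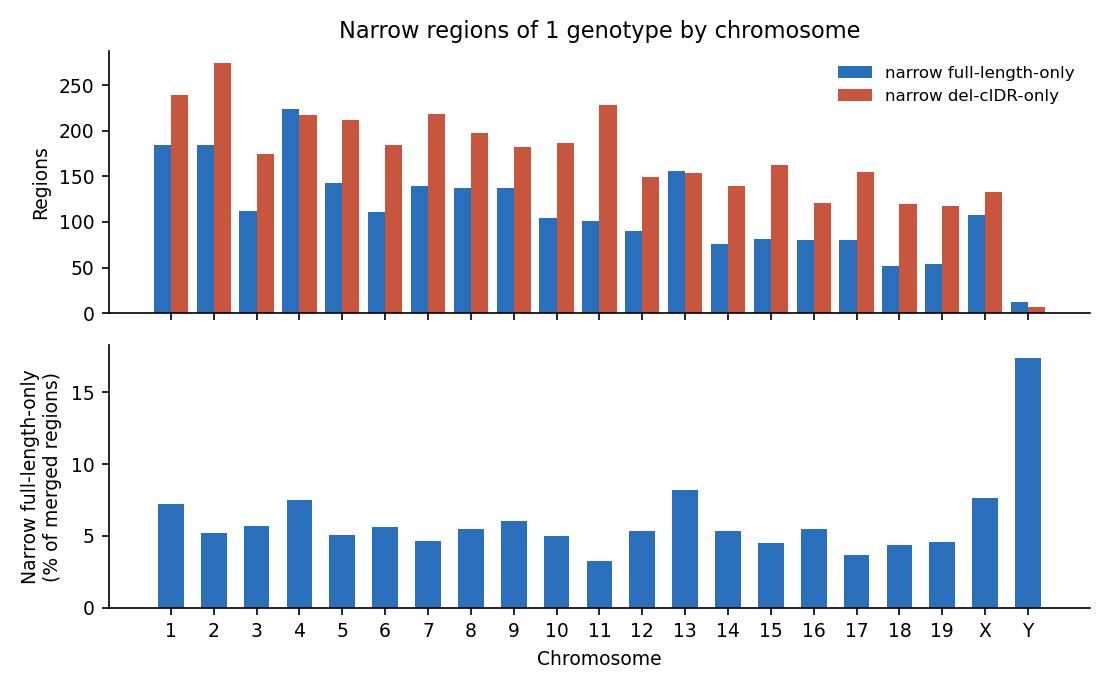
Number of narrow full-length-only (blue) and narrow del-cIDR-only (red) regions per chromosome (top) and narrow full-length-only regions as percent of all merged regions of the chromosome (bottom). Blue bars pass red bars only on chromosomes 4, 13 and Y, and the percentage is lowest on chromosome 11 (3.25%). The narrow full-length-only set has 2370 regions in all and the narrow del-cIDR-only set 3577.

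Within chromosomes the regions were uneven. A narrow full-length-only region was found in 1050 of the 2545 windows of 1 Mb with any region (41.3%), 633 of these held exactly 1, and 105 windows with 5 or more held 950 regions (40.1%). The fullest window, chromosome 1 from 34 to 35 Mb, held 37 narrow and 47 broader full-length-only regions. Full-length replicates 1 and 2 had 103 and 106 peaks there and del-cIDR replicates 12 and 22. Chromosome 4 from 123 to 124 Mb and from 147 to 148 Mb held 28 narrow regions each. On chromosome 2 from 176 to 177 Mb there were 25, amid 101 and 77 full-length and 2 and 1 del-cIDR peaks. Chromosome 1 from 71 to 72 Mb was different in kind, with 20 narrow and 2 broader full-length-only regions 35 and 34 peaks in the full-length lists and 13 and 14 in the del-cIDR lists.

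The large blocks rich in full-length peaks held a small part of the class, but were themselves a small part of the genome. The block of chromosome 4 from 144 to 148 Mb held 79 narrow full-length-only regions (3.33%), that of chromosome 13 from 64 to 68 Mb held 38 (1.60%), and that of chromosome 2 from 174 to 178 Mb held 37 (1.56%). Broader full-length-only regions numbered 133, 57 and 96 in the same blocks, of 5179 in all, and narrow del-cIDR-only regions 10, 8 and 1. The blocks were picked by their number of full-length-only regions, so these counts are a description. The 10 fullest of the 2545 windows together held 247 narrow full-length-only regions (10.4%). Most of the class lay outside them, though they were a small part of the windows.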

How the data were processed

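The 4 peak lists come from eCLIP immunoprecipitates of full-length and del-cIDR ALKBH5, with 2 replicates each. The submitters' processing notes name MACS2, STAR, cutadapt and UMI-tools and the build GRCm39. Their versions, their settings and any use of the inputs in peak calling are not stated there. For each peak the authors deposited a score, the summit position, a fold enrichment (a ratio) and the −log10 of the p-value and of the q-value, and peaks had been called per library. Lists with wt in their name were read as full-length and those with KI as del-cIDR, the only other genotype.

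Peaks were merged with Python 3.11.15 and pandas 2.3.3. Distances are bases between region edges. Own-list shares per library, read at a different region set for each genotype, were compared with a two-sided exact permutation test over 2 against 2 libraries. The same test planned for other-genotype neighbours is not reported, since its library values are not independent. Merging and distances were tested on simulated lists. Members, lists and tests were chosen with earlier results of these data known. Named regions were the 10 ranked highest by −log10 q, averaged over replicates, the 5 nearest to a del-cIDR region, the 5 farthest from any region, the 5 largest groups and 3 on each side of the width limit. Blocks of 4 Mb were those with most full-length-only regions on chromosomes 4, 2 and 13. Alternatives were stricter peaks, equal lists, other merging, overlap, widths and distances, each replicate left out, and a replicate block. Gene names, gene lists, cell type markers and sequence need an annotation or genome of GRCm39 and were not used here.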

Additional observations from a re-analysis of the deposited data

How the results depend on the processing

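The differences between genotypes in own-list and in other-genotype neighbours kept their direction under all 15 alternatives each. Of these, the replicate block alters only the p and the 50% overlap removed no member, so both repeat the main differences. For the own-list difference no alternative could bring the exact permutation p under 0.333. With a replicate block that p was 0.5, for an own-list difference of 37.95 points. The other-genotype difference of 17.0 points carries no test. Whether same-numbered libraries were prepared together is not known. Their deviations over 2267 windows of 1 Mb correlated at -0.00807, which cannot decide it. Leaving out each library in turn gave 19.1 to 41.2 points for own-list and 1.60 to 21.5 for other-genotype neighbours, with 2492 to 8634 members. The median distance was 1194 to 1958 bp to full-length and 17754 to 26846 bp to del-cIDR regions. Enrichment, as the mean of the full-length list medians or the only median left, was 3.43 to 4.35-fold. The chromosome 4 share was 7.90 to 9.71%. Fewer lists to meet, or fewer to be near, move these values by construction. Peaks of at least 4-fold alone left 1181 members, at 2463.5 bp from full-length and 110222 bp from del-cIDR regions. The mean of their 2 list medians of enrichment was 6.32-fold. At a width limit of 350 bp there were 1505 members, at 1831 and 25782.5 bp. Centre-to-centre distance to full-length regions was 1670 bp, and neighbours required in both lists lay at 2828 and 54447 bp, a setting chosen after seeing the data. The cause of these shifts was not tested. A −log10 q of at least 5, lists of 16636 peaks, merging within 100 bp and a limit of 500 bp kept the count within 1.5 times and moved neither median distance by more than the spread between replicates. The 500 bp limit lowered the own-list difference to 32.6 and the other-genotype difference to 11.8 points. Sharing at least 50% of the shorter peak removed no member. Alternatives for enrichment, summit distance and chromosome share were added later. Depth limits the absence of del-cIDR peaks, as read numbers are unknown.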
